A study of Mus musculus and Homo sapiens with 20 samples.

Results

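Hoxa7, Hoxa9, Hoxa10, Hoxa11 and Hoxa13, the posterior genes of the Hoxa cluster, and Meis1 were followed through 20 CUT&Tag peak lists. They are 6 of 21938 protein-coding genes in the mouse annotation and, by their upper-case symbols, 6 of 20033 in the human one, and all 6 were found in both. Members were found by symbol, and the rule itself uses no measured value. CUT&Tag cuts and tags DNA next to a chromatin mark that an antibody has bound, and a peak is a stretch where the tagged fragments pile up above background. The marks were H2AK119ub, histone H2A carrying 1 ubiquitin, and H3K27me3, histone H3 trimethylated on a lysine of its tail.

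The mouse libraries came from embryonic stem cells (mES cells) and from lineage-negative, c-Kit-positive haematopoietic stem and progenitor cells (HSPCs), each with wild-type Tet2 (WT) or with Tet2 knocked out (KO), and each profiled for both marks. The mES cells were grown with serum, LIF and the inhibitors CHIR99021 and PD0325901. The HSPCs were sorted magnetically from the bone marrow of mice aged 6 to 8 weeks and are a mixture of progenitors. The labels also describe culture of such cells with cytokines and do not say whether the profiled cells were fresh or cultured, a doubt that touches each comparison of HSPCs with mES cells. K562 cells, an established human leukaemia line, were profiled for H2AK119ub alone, after nucleofection of a control siRNA (siControl) or of an siRNA against MBD6 (siMBD6). Each of the 10 groups held 2 libraries. TET2 oxidizes 5-methylcytosine and MBD6 belongs to a complex that removes ubiquitin from H2A. The study compared H2AK119ub levels, scaled to a spike-in, after loss of TET2 and after MBD6 knockdown. The peak lists used here hold positions without those levels.

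Hox proteins are homeodomain transcription factors whose genes sit along the chromosome in the order in which they are used along the body axis. Polycomb repressive complex 1 places H2AK119ub, Polycomb repressive complex 2 places H3K27me3, and silent Hox clusters are textbook targets of both. HOXA9 and its partner MEIS1, a homeodomain protein of the TALE class, maintain the self-renewal of blood stem cells and drive acute leukaemia when they stay on.

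The lists gave positions and no heights, so the measure was the percent of a gene's span, or of the 2 kb centred on its annotated start (1 kb on each side, called the promoter here), that lay under peaks. A mark that grew weaker without leaving the list could not be seen. The lists held 85121 to 167378 peaks and covered 132.1 to 259.9 Mb, and the number of reads behind them was not given. The 2 lists of a group shared 16 to 69 identical peaks, so each was kept as a sample. The study's methods call its CUT&Tag replicates biological, but nothing in the labels says which cultures or animals the 2 libraries of a group came from, so each p-value measures only the spread between these samples, part of which may be technical. With 2 libraries against 2, an exact permutation test has 6 arrangements and cannot give a p below 0.333. Promoters of pluripotency genes were free of H3K27me3 peaks in 3 to 5 of 6 cases in mES libraries and in 1 of 6 in HSPC libraries. H2AK119ub went the other way, with 0 of 6 free in mES libraries and 1 or 2 of 6 in HSPC libraries. Only H3K27me3 thus went with the mES label. Promoters of blood progenitor genes were free of either mark in 1 or 2 of 8 in both cell types, so these marks check the blood label only weakly.

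In mouse cells, both marks lay over nearly the whole of the posterior Hoxa genes. The 5 genes occupy 46390 bp on chromosome 6 (mm10, chr6:52214491-52260880), all on the minus strand, from Hoxa7 at the low end to Hoxa13 at the high end. In mES cells, H2AK119ub covered 88.1% and 87.5% of this interval in the WT libraries and 91.6% and 90.7% in the KO libraries. H3K27me3 covered 94.2% and 98.9% in WT, and 93.8% and 94.2% in the KO libraries. The HSPC lists gave 85.0% and 91.6% for H2AK119ub in WT and 89.2% and 88.9% in KO. H3K27me3 in HSPCs was different in form, because each of the 4 lists held the whole interval in a single peak.

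The members were not marked alike. Hoxa7, the first of the posterior genes in this interval, and Hoxa11, a limb and uterus gene, were covered over 100% of their spans in all 8 mES libraries. Hoxa9, the leukaemia gene, had 92.7% and 87.9% of its span under H2AK119ub in WT mES cells and 100% in both KO libraries. Hoxa10, its neighbour, had 81.8% and 81.2% in WT and 89.0% and 84.4% in KO. Hoxa13, the gene of the distal limb and hindgut, was the least covered of the 5 for H2AK119ub, at 65.0% to 71.9% in mES cells, against 67.3% to 71.6% in HSPCs. These Hoxa13 ranges overlap between the cell types. In mES cells they lie below those of the other posterior genes, and in HSPCs the highest Hoxa13 value and the lowest Hoxa9 value are both 71.6%. In HSPCs the H2AK119ub ranges of Hoxa9 (71.6% to 100%), Hoxa10 (79.3% to 100%), Hoxa11 (86.4% to 100%) and Hoxa7 (96.7% to 100%) overlapped one another, so no order can be read among them. For comparison, 3.91% to 7.95% of all mouse protein-coding genes had at least 90% of their span covered in a library, and the median gene had 0% to 8.44% covered.

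**Figure D1:**
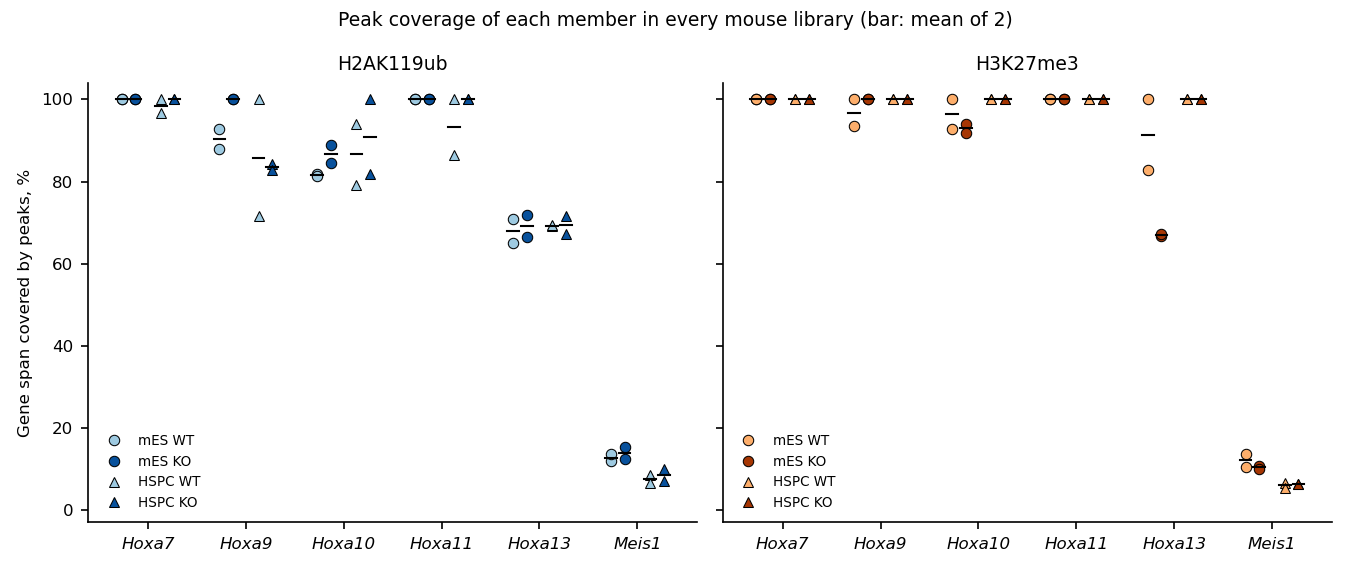
Percent of each member's span under H2AK119ub peaks (left) and H3K27me3 peaks (right) in every mouse library. Circles are mES and triangles HSPC libraries, light WT and dark KO, and bars are the mean of 2 libraries. Hoxa13 sits lowest of the Hoxa genes for H2AK119ub, and Meis1 lies under 16% throughout.

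A large part of the interval carried both marks at once. In mES cells 86.5% of its bases lay under peaks in all 4 H2AK119ub and all 4 H3K27me3 libraries, and in HSPCs 79.2% did. No base was free of both marks in all 8 libraries of either cell type. H3K27me3 without H2AK119ub, meaning present in all 4 lists of the former and in none of the latter, took up 0.929% of the interval in mES cells and 3.54% in HSPCs. The converse was not found at any base in either cell type.

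Some of the H2AK119ub gaps recurred at the same places. Single mouse lists covered 85.0% to 91.6% of the interval, so most of the bases that a list left uncovered were not shared by all lists. Over all 8 mouse H2AK119ub libraries, 78.1% of the interval was covered in every list and 3.11% in none. The uncovered bases formed 3 stretches, all at the Hoxa13 end. A stretch of 516 bp lay between Hoxa11 and Hoxa13 at chr6:52254768-52255283. Another of 471 bp, chr6:52257621-52258091, straddled the 3′ end of Hoxa13. The last, 458 bp at chr6:52260423-52260880, ran up to the annotated Hoxa13 start and overlaps the first exon. For H3K27me3, 89.8% of the interval was covered in all 8 lists and no base was uncovered in all.

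The base composition of these gaps lay on both sides of that of the interval, which is 50.7% G+C with 33.6 CG dinucleotides per kb. The gap at the Hoxa13 start was 77.1% G+C and held 69 CG. The other 2 were 33.5% and 29.9% G+C and held 4 and 3 CG. Base composition can change how well tagged fragments are amplified and mapped, and its part in these gaps was not tested. All 6 members matched the RefSeq promoter table (GRCm38.p6, 300 bp from 250 before to 50 after each start), with a pair of entries for Hoxa10. The Hoxa13 entry was 81.0% G+C with 45 CG, and 0.74% of 32841 promoters reached that G+C content. The remaining 6 entries ranged from 49.7% to 58.3% G+C and from 4 to 21 CG, around the medians of 52.7% and 7 over all promoters.

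Sequences upstream of Hoxa9, Hoxa13 and Meis1, chosen because their coverage by the marks differs, show a range of composition, in mm10 on the minus strand, 5′ to 3′, with CG dinucleotides in capitals. They end at the base before the annotated start. The Hoxa9 bases are chr6:52227371-52227620, before the RefSeq start, which lies inside the longer GENCODE gene. Those of Hoxa13 are chr6:52260881-52261130, and those of Meis1 are chr11:19018986-19019219.
Hoxa9 upstream: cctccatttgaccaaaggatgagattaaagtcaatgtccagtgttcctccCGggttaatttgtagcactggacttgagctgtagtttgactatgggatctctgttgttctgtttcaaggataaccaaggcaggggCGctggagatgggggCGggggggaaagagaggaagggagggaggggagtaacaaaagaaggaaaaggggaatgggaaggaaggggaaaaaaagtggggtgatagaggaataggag
Hoxa13 upstream: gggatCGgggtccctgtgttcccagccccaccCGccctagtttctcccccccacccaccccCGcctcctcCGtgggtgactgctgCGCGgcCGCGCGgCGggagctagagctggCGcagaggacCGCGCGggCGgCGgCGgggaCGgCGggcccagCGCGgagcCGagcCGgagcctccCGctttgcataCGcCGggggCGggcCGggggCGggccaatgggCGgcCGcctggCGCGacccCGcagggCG
Meis1 upstream: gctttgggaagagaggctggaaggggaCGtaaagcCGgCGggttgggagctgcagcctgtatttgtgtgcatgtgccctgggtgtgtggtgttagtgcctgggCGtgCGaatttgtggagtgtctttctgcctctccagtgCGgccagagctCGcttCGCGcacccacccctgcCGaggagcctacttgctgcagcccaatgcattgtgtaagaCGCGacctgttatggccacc
The Hoxa9 run was wholly covered in all 4 mES H2AK119ub libraries and ranged from 0% to 100% in HSPCs. The Hoxa13 run was 18.8% to 76.0% covered by H2AK119ub in mES cells and 0% to 3.60% in HSPCs, whereas H3K27me3 covered it wholly in all 4 HSPC libraries. The Meis1 run was covered over its whole length in all 16 mouse libraries. The bases at the middle of the gap between Hoxa11 and Hoxa13 (chr6:52254876-52255175, plus strand) are A+T-rich by contrast.
Between Hoxa11 and Hoxa13: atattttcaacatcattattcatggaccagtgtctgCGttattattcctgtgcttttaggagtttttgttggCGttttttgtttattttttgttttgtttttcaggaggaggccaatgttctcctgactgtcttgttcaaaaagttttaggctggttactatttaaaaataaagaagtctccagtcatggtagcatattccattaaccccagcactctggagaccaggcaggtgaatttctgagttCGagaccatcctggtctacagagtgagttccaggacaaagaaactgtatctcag
This run was free of H2AK119ub in all 8 mouse libraries. H3K27me3 covered it wholly in all 4 HSPC libraries and in 1 of 4 mES libraries, and left it free in the other 3.

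The cell types differed most in what lay beside the posterior genes. When peaks less than 3 kb apart were joined, the chain over the posterior genes began in all 8 mES libraries between bases 52146339 and 52149757, beyond Hoxa2. In HSPCs the low-side edge of the H3K27me3 chain was at 52205989 and 52205768 in WT and at 52205990 and 52205419 in KO. The lowest and the highest of these 4 positions are 571 bp apart, between Hoxa5 (ends at 52204587) and Hoxa6 (begins at 52206288). The H2AK119ub edge was at 52205687 in WT replicate 1 and at 52205810 in KO replicate 1, in the same gap. In WT replicate 2 and KO replicate 2 it was at 52200377 and 52200001, beyond Hoxa5. So 6 of 8 HSPC chains and 0 of 8 mES chains had their low-side edge between Hoxa5 and Hoxa7. With peaks joined across 1 kb only, or with peaks of at least 1 kb only, all 8 HSPC chains began there, and at 5 kb 6 did. The closeness of the H3K27me3 edges depended on small peaks. With peaks of at least 1 kb they were at 52205989 and 52206955 in WT and at 52207052 and 52205419 in KO. The edges of WT replicate 2 and KO replicate 1 then lay inside Hoxa6. The reach of the mES chains depended on this choice, since at 1 kb they began between 52162805 and 52199554, inside the cluster, and at none of these settings did an mES chain begin between Hoxa5 and Hoxa7. On the high side the HSPC H3K27me3 chains ran past Evx1, to between 52331622 and 52341309.

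The 300 bases around the last of the HSPC H3K27me3 edges, with all peaks joined across 3 kb, follow (mm10 chr6:52205841-52206140, plus strand). Capitals mark bases under H3K27me3 in all 4 HSPC libraries. The 300 bases lie between Hoxa5 and Hoxa6 and inside an intron of a long Hoxa3 transcript and of the antisense transcript Hoxaas3.
HSPC edge: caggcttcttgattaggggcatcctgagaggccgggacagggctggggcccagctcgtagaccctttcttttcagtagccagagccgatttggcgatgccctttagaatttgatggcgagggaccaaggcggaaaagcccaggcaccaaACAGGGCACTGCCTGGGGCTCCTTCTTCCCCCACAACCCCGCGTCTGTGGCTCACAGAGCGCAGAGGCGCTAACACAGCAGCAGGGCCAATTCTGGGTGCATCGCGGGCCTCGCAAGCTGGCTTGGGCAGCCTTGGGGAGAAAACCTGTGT
All 8 mES libraries covered these bases in full. They were 61.0% G+C with 13 CG.

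To measure this contrast, the coverage of the anterior interval, from Hoxa2 to Hoxa6 (46306 bp), was subtracted from that of the posterior interval within each library. The measure was chosen after the tracks had been seen, and the interval was narrowed after a first set of values, which made the contrast larger. For H2AK119ub the difference ran from 1.58 to 4.06 percentage points over the mES libraries and from 53.9 to 63.8 over the HSPC libraries, and the means of 2.62 ± 1.09 and 59.2 ± 4.30 (SD, n = 4) were 56.6 points apart. For H3K27me3 it ran from -2.36 to 3.97 and from 58.3 to 65.5 points, with the means 61.2 points apart. No HSPC library overlapped an mES library for either mark. The exact permutation p, with libraries exchanged between cell types within a genotype (36 arrangements), was 0.0556 for each mark and 0.0556 after adjustment over both, the smallest value this design can give. Because the contrast was picked from these same libraries, this p-value adds no support to it. The anterior genes did not all follow the interval. Hoxa5 had 100% of its span covered in all 8 mES lists, and in HSPCs it had 0% in all 4 H3K27me3 lists and in 2 H2AK119ub lists, with 39.8% and 35.2% H2AK119ub in WT replicate 2 and KO replicate 2. Hoxa2 went the other way for H3K27me3, with 80.3% to 86.3% in mES libraries and 100% in all 4 HSPC libraries. Hoxa6, beside the edge, kept 75.0% to 100% under H3K27me3 in HSPCs. For H2AK119ub, Hoxa6 had 71.0% and 49.9% in WT HSPCs and 68.1% and 35.7% in KO, against 100% in all 4 mES libraries. In the anterior interval 36.5% of bases carried H3K27me3 in all 4 mES and in no HSPC library, and 28.6% carried H2AK119ub in this way, whereas in the posterior interval no base did.

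**Figure D2:**
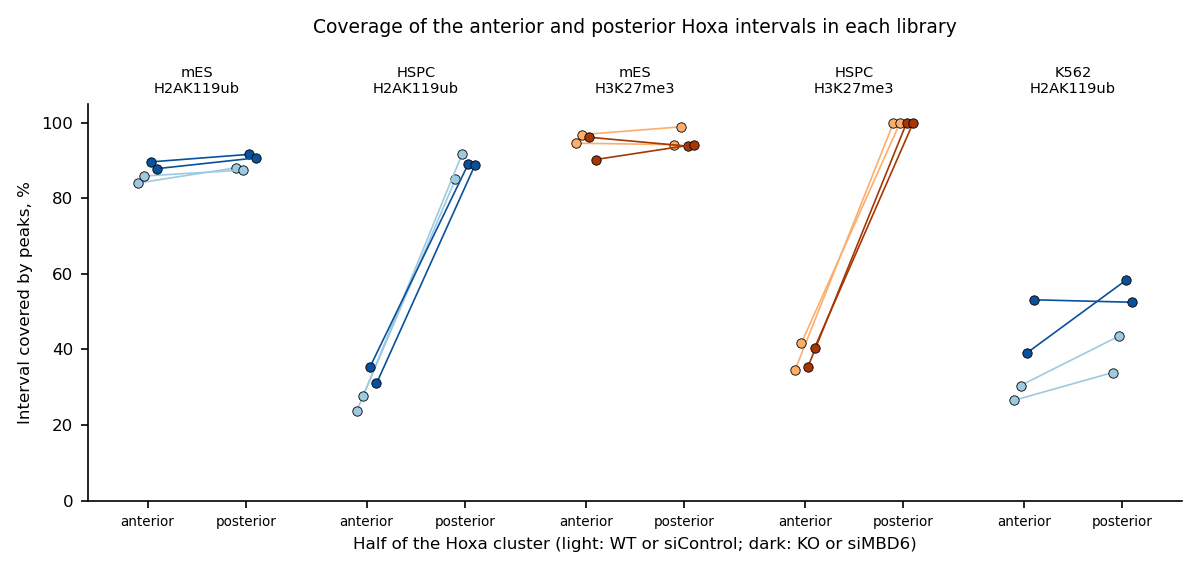
Percent of the anterior (Hoxa2 to Hoxa6) and posterior (Hoxa7 to Hoxa13) intervals under peaks, with a line joining both values of a library. Light points are WT or siControl and dark points KO or siMBD6. HSPC lines climb by 53.9 to 63.8 points for H2AK119ub and 58.3 to 65.5 points for H3K27me3, whereas no mES line moves by over 5 points.

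Within the posterior interval itself the cell types differed little. H2AK119ub averaged 89.5% ± 2.00 in mES cells and 88.7% ± 2.73 in HSPCs (SD, n = 4 each), with overlapping libraries (exact permutation p = 0.667, adjusted p = 0.933 over 14 tests). H3K27me3 averaged 95.3% ± 2.43 and 100%, and no libraries overlapped (exact permutation p = 0.0556, adjusted p = 0.259). The HSPC lists covered less of the genome than the mES lists for H2AK119ub (138.8 to 177.0 Mb against 235.1 to 259.9 Mb), and for H3K27me3 the totals overlapped. The labels name no batch, and cell type and batch cannot be told apart.

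Meis1 was marked mainly near its start and just past its 3′ end, with sparse cover in between. The gene spans 139169 bp (chr11:18879817-19018985, minus strand), far more than the Hoxa genes. H2AK119ub covered 11.9% and 13.6% of the span in WT mES cells and 15.4% and 12.5% in KO, against 8.65% and 6.58% in WT HSPCs and 7.04% and 10.1% in KO. H3K27me3 covered 10.5%, 13.7%, 10.7% and 10.0% in the same order of mES libraries and 6.66%, 5.49%, 6.31% and 6.28% in HSPCs. Every HSPC library lay below every mES library for both marks. The differences were -5.25 points for H2AK119ub and -5.05 points for H3K27me3 (exact permutation p = 0.0556 and adjusted p = 0.259 for each). For H2AK119ub the HSPC lists as a whole also covered less of the genome, as given above. The part of these totals in the Meis1 difference was not tested.

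The cover was concentrated in the first 12 kb of the gene, where H3K27me3 took up 81.0% to 95.4% in mES cells, against 63.7% to 77.2% in HSPCs, and H2AK119ub 67.8% to 79.6% and 39.2% to 61.0%. Over the other 127 kb, H3K27me3 covered 1.95% to 6.40% in mES cells, against 0% to 0.394% in HSPCs, and H2AK119ub covered 6.06% to 9.93% and 1.95% to 5.42%. Beyond the 3′ end, a 10-kb flank was 79.4% to 90.8% covered by H3K27me3 in mES cells and 64.5% to 71.0% in HSPCs. The low-side edge of the joined chain over the Meis1 start lay between 19006992 and 19007806 in all 16 mouse libraries, about 12 kb into the gene, when peaks were joined across 3 kb. This position depended on the joining, since the edges spread from 19006992 to 19018778 at 1 kb and from 19000056 to 19007806 at 5 kb. With peaks of at least 1 kb only, H2AK119ub left no chain over the Meis1 start in the WT libraries of either cell type or in HSPC KO replicate 1. In mES cells 75.1% of the span, and in HSPCs 84.1%, was free of both marks in all 8 libraries.

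**Figure D3:**
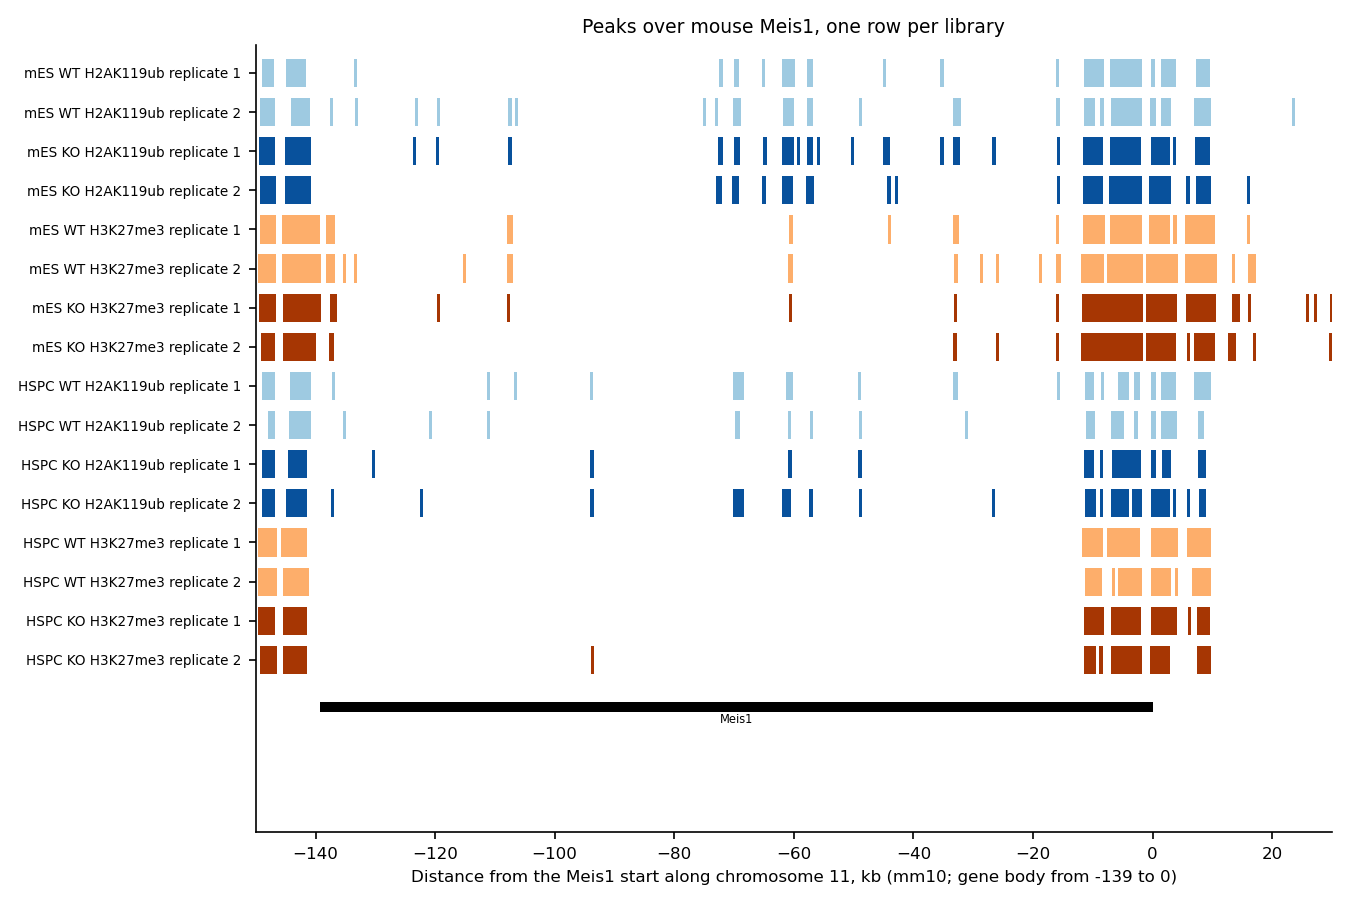
Peaks of the 16 mouse libraries over Meis1, with the distance from the Meis1 start along chromosome 11 in kb on the horizontal axis and the gene running left from 0. Colours are as for the Hoxa tracks. With peaks joined across 3 kb the cover near 0 ends about 12 kb inside the gene in every row, further small peaks lie deeper in the gene, and a separate block lies past the 3′ end at the left.

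Between KO and WT, the mean cover of the posterior interval differed by less than 4 points in each of the 4 comparisons. For H2AK119ub in mES cells the WT mean was 87.8% ± 0.430 and the KO mean 91.2% ± 0.671 (SD, n = 2 each), 3.38 points apart with no overlap between the groups (exact permutation p = 0.333, adjusted p = 0.933 over 14 tests). The anterior interval rose in the same libraries, from 84.0% and 85.9% in WT to 89.6% and 87.9% in KO, also with no overlap. For H3K27me3 in mES cells the KO minus WT difference in the posterior interval was -2.54 points, with overlapping groups (exact permutation p = 0.667). In HSPCs the differences were 0.721 points for H2AK119ub and 0 for H3K27me3 (exact permutation p = 1 for each). For the Meis1 span the KO minus WT differences ran from -1.73 to 1.19 points, with overlapping groups in all 4 comparisons.

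Single members with groups that did not overlap were few. For H2AK119ub in mES cells, 2 of 6 spans were higher in both KO libraries (Hoxa9 and Hoxa10, values above) and 0 lower, where 18.4% of 17586 genes were higher in this way and 19.2% lower. Part of the Hoxa9 difference was a stretch of 581 bp, chr6:52223275-52223855, at the 3′ end of the gene, which was covered in both KO and neither WT library. With peaks joined across 1 kb the Hoxa9 difference was 0 and that of Hoxa10 12.1 points. The Meis1 promoter had 31.4% and 44.4% under H2AK119ub in WT mES cells and 64.8% and 81.3% in KO, and it was the only 1 of the 6 promoters whose groups did not overlap, where 13.8% of 16297 promoters were higher and 12% lower. This separation depended on the joining. Across 1 kb, the peak over the Meis1 start ran from 19018630 to 19022026 in WT replicate 2 and from 19018690 to 19022970 in KO replicate 1. WT replicate 2 then had more of the window covered than KO replicate 1, so the groups overlapped. In HSPCs the same promoter had 38.4% and 37.8% in WT and 39.8% and 61.8% in KO, without overlap, a mean difference of 12.7 points. This difference rested on KO replicate 2, since it was 1.699 without that library, and it turned to -11.1 when peaks were joined across 1 kb.

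For H3K27me3 in mES cells, 1 of 6 spans, that of Hoxa13, was lower in both KO libraries and 0 were higher, where 34.9% of 13533 genes were lower and 8.70% higher. Hoxa13 had 82.7% and 100% of its span covered in WT and 66.9% and 67.2% in KO, and its promoter had 100% in both WT libraries and 72.2% and 69.8% in KO. The promoter too was the 1 of 6 that was lower, where 29.6% of 11829 promoters were lower and 3.53% higher. A stretch of 541 bp at the Hoxa13 start, chr6:52260340-52260880, was covered in both WT and neither KO library, and it includes the stretch that had no H2AK119ub in any mouse library. With peaks joined across 1 kb the Hoxa13 differences in span and in promoter were both 0, so they rested on gaps of less than that length. The H3K27me3 chain over the cluster was 185214 and 185210 bp long in WT and 133312 and 133024 bp in KO when peaks were joined across 3 kb. This contrast depended on the joining. At 5 kb KO replicate 1 had 178972 bp, at 1 kb the groups overlapped (104810 and 120096 bp in WT, 120055 and 103673 bp in KO), and with peaks of at least 1 kb the lengths were 136556 and 136492 bp in WT and 133312 and 127174 bp in KO. The H3K27me3 lists of the mES groups covered 188.9 and 232.5 Mb in WT and 214.5 and 149.4 Mb in KO, and the part of these totals in the Hoxa13 difference was not tested.

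In HSPCs, 0 of 6 spans differed without overlap for either mark, where 23.3% of 17835 genes were higher and 11.6% lower in KO for H2AK119ub, and 19.2% of 17027 higher and 23.7% lower for H3K27me3. Of the promoters, Meis1 was higher for H2AK119ub, with the limits given above (24.8% of 16584 promoters were), and Hoxa13 lower, with 61.6% and 62.6% in WT and 57.3% and 61.0% in KO (6.68% were), a difference that was 0 with peaks joined across 1 kb. The Meis1 promoter was also higher for H3K27me3, with 63.6% and 60.4% in WT and 66.6% and 68.6% in KO, where 13.6% of 15576 promoters were higher and 12.4% lower. The H3K27me3 values of the 5 posterior Hoxa genes were 100% in all 4 HSPC libraries, so a change could show only as a loss of cover.

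K562 cells carried H2AK119ub over the posterior HOXA genes in fragments. The human interval is 46376 bp on chromosome 7 (hg38, HOXA7 at chr7:27153716-27157936 to HOXA13 at chr7:27193503-27200091, minus strand). Peaks covered 33.9% and 43.5% of it in siControl cells and 58.3% and 52.5% in siMBD6 cells, as 12 to 14 separate peaks. The means were 38.7% ± 6.84 and 55.4% ± 4.09 (SD, n = 2), a difference of 16.7 points with no overlap (exact permutation p = 0.333, adjusted p = 0.933 over 14 tests). The lists as a whole also covered more after siMBD6, at 177.6 and 190.2 Mb against 132.2 and 132.1 Mb. The part of these totals in the difference was not tested. The anterior interval (HOXA2 to HOXA6) was also more covered after siMBD6, at 39.1% and 53.1% against 26.5% and 30.4%, without overlap. Of its 5 genes, 4 had higher spans with siMBD6 and 0 lower, so the rise was not particular to the posterior genes.

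Groups did not overlap for 4 of 6 spans, all higher with siMBD6, where 53.0% of 13104 genes were higher and 1.95% lower. HOXA7 had 21.6% and 21.1% in siControl and 55.7% and 51.4% in siMBD6, a difference that 98.7% of genes did not exceed. HOXA9 had 30.2% and 44.02% against 51.6% and 45.1%, HOXA10 had 42.2% and 39.3% against 51.9% and 47.1%, and HOXA11 had 41.4% and 44.7% against 60.5% and 52.0%. The HOXA9 and HOXA10 spans overlap in the human annotation and share some of these bases. HOXA13 had 7.60% and 19.5% against 22.8% and 13.9%, with overlap. MEIS1, on chr2:66433452-66573869, was essentially unmarked, with 0% and 0.357% in siControl and the same values in siMBD6, so it gave nothing to compare.

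The promoters of 3 members were higher in both siMBD6 libraries and 0 were lower, where 26.4% of 10173 promoters were higher and 4.33% lower. The HOXA10 promoter had the largest difference of the 6, with 0% in both siControl libraries and 77.2% and 71.8% in siMBD6, a difference that 99.9% of promoters did not exceed. HOXA11 had 36.5% and 11.2% against 69.8% and 62.5%, and HOXA13 had 37.7% and 32.9% against 47.6% and 42.7%. The HOXA10 window was that of the outermost of 2 coding starts. Over the windows of both HOXA10 starts, 8.12% and 7.25% lay under peaks in siControl and 46.5% and 53.0% in siMBD6. The HOXA7 promoter had 53.5% and 31.7% against 39.0% and 25.0%, with overlap and a lower mean in siMBD6, although its span was more covered, and the difference of -10.6 points turned to 25.9 with peaks joined across 1 kb. In all, 4977 bp of the interval were covered in both siMBD6 and neither siControl library, 199 bp the reverse, and 12114 bp in all 4. One of the stretches gained was 1267 bp over the outermost HOXA10 start (chr7:27179670-27180936).

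The bases just before the HOXA10 start, which lie inside that stretch, follow (hg38, chr7:27180262-27180561, minus strand, CG in capitals).
HOXA10 upstream: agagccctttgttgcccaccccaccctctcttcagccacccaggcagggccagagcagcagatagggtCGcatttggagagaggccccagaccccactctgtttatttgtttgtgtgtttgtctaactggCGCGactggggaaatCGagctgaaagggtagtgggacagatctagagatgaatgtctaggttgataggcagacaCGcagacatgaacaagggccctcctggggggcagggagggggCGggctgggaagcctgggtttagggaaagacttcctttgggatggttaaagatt
This run was covered over its whole length in the 2 siMBD6 libraries and free of peaks in the 2 siControl libraries. It held 6 CG in 300 bases.

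**Figure D4:**
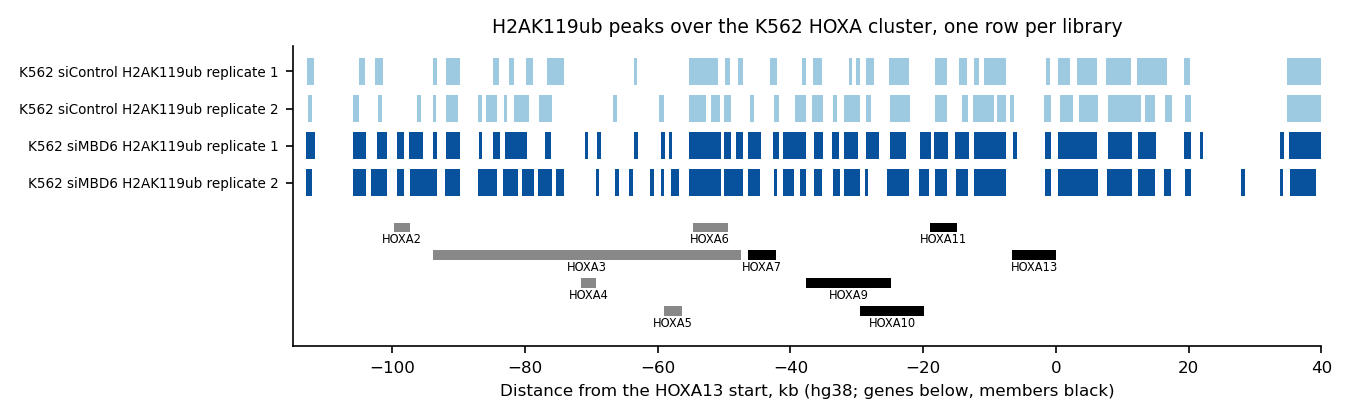
H2AK119ub peaks of the 4 K562 libraries over the HOXA cluster, with the distance from the HOXA13 start in kb on the horizontal axis. Light rows are siControl and dark rows siMBD6. Near -20 kb, at the HOXA10 start, a peak is present in both siMBD6 rows and in neither siControl row.

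Genes that work with the members were counted as lists: the TALE partners (Pbx2, Pbx3, Pbx4, Meis2, Meis3, Pknox1 and Pknox2), the regulators Kmt2a, Men1, Psip1 and Dot1l, of the MLL and DOT1L machinery that keeps Hoxa genes on, and 8 targets of HOXA9 and MEIS1 (Myb, Flt3, Sox4, Erg, Cdk6, Bcl2, Lmo2 and Myc). For H2AK119ub in KO mES cells, 1 partner was higher and 1 lower, 0 regulators differed, and 5 targets were higher and 2 lower, where 18.4% of all genes were higher and 19.2% lower. For H3K27me3 there, 4 of the 6 partners with a peak and 1 of the 7 targets with a peak were lower and 0 were higher, and the 4 regulators had no peak to test, where 34.9% of all genes were lower. In KO HSPCs, 3 partners were higher and 1 lower for H2AK119ub, with 1 regulator and 1 target lower, where 23.3% of all genes were higher and 11.6% lower. For H3K27me3 there, 3 partners were higher and 1 lower, 1 regulator was lower, and 1 target was higher and 4 lower, where 19.2% of all genes were higher and 23.7% lower. In K562, 3 partners, 2 regulators and 4 targets were higher with siMBD6 and 0 lower, beside the 53.0% of all genes that were.

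Those that differed by 10 points or more without overlap are given by name. Pbx2, a DNA-binding partner of HOX proteins, had 56.9% and 50.9% of its span under H2AK119ub in WT mES cells and 68.9% and 64.3% in KO, and 41.3% and 50.8% against 77.7% and 59.3% in HSPCs. For H3K27me3 in HSPCs, Meis3 had 63.9% and 63.3% in WT against 82.0% and 82.7% in KO, and Pknox2 had 54.0% and 52.2% against 70.5% and 65.6%. Men1, which encodes menin, had 24.3% and 19.2% against 8.47% and 0%, and Myc had 0% in both WT libraries against 10.9% and 10.1%. The Myc promoter did not follow its span, with 25.0% in both WT libraries against 59.6% and 0% in KO. In K562, PKNOX2 had 41.2% and 42.3% against 57.8% and 61.8%.

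Across the 8 mouse H2AK119ub libraries the span cover of Hoxa9 varied with an SD of 10.3 points. The genes most like it by Pearson correlation, out of 10043 with an SD of at least 5 points, were Siglech (r = 0.93), Tap2 (r = 0.92) and Prr19 (r = 0.91), as a description over 8 libraries that also share cell type and peak number. For H3K27me3 Hoxa9 had an SD of 2.25 points, and Meis1 had 3.16 and 2.93 points for the 2 marks, too little variation to rank genes against.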

How the data were processed

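CUT&Tag libraries of mES cells, HSPCs and K562 cells were analysed from the deposited peak lists, 1 for each of 20 libraries. The authors' pipeline, from the published methods and processing notes, ran read trimming (Trimmomatic 0.39), alignment to mm10 or hg38 with a Drosophila spike-in (Bowtie2 2.4.1), duplicate removal and broad peak calling (MACS2). The notes name HOMER 4.9 without its role. The deposited values are peak positions, with no score, count or spike-in scaling, so the depth behind a peak is unknown. The antibodies were the same in all groups of a mark.

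Peaks on assembled chromosomes were merged within a list (Python 3.11.15, numpy 2.4.6, pandas 2.3.3), and the percent of each protein-coding gene's span and of the 2 kb around its start under peaks was computed, with GENCODE vM21 or v44 genes. Groups were called different at a gene when no library of one overlapped the other, among genes with a peak in at least 1 library compared. Intervals were compared by exact two-sided permutation over libraries, with Benjamini-Hochberg adjustment over 14 tests. Domain edges were read after joining peaks less than 3 kb apart. Coverage code was tested on simulated lists with known answers. Alternatives were peaks of at least 1 kb, joining across 1 kb, equal-length lists, leaving out each library, a replicate block, WT libraries only, wider promoters, all coding starts and other joining distances. Equal-length lists kept the first peaks of each list, in an order that no source describes, so they are not a control for depth.

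The members, gene lists and tests were chosen with earlier results of these data known. Named genes were the 6 members, genes of the 3 lists whose groups did not overlap and differed by at least 10 points (up to 4 a comparison), and the 3 genes most correlated with Hoxa9 or Meis1 for each mark. The comparison of posterior with anterior cover, the parts of Meis1 and the stretches shown as sequence were chosen after values were seen. Some genes and sequences of the region and lists are not reported here, and the partner list and the anterior interval were reduced accordingly.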

Additional observations from a re-analysis of the deposited data

How the results depend on the processing

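No result passed a test's threshold, since the smallest exact p is 0.333 for 2 libraries against 2 and 0.0556 for 4 against 4 within genotype, so only direction and size can be followed across settings. Joining peaks across 1 kb took the mES H3K27me3 difference between KO and WT in the posterior interval to 0, the HSPC minus mES H3K27me3 difference to 0, the HSPC H2AK119ub difference between KO and WT to -1.08, the HSPC H3K27me3 Meis1 difference to -0.0697 and the HSPC H2AK119ub Meis1 promoter difference to -11.1, and left 1 member span higher in KO mES cells for H2AK119ub rather than 2. Keeping peaks of at least 1 kb turned the Meis1 differences for H3K27me3 to 0.0291 in mES cells and -0.028 in HSPCs, turned the H2AK119ub HSPC minus mES difference in the posterior interval to 0.279, and made 1 member span higher in KO HSPCs for H2AK119ub rather than 0. That last difference between cell types was 0.528 in WT libraries only.

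Leaving out 1 library at a time, the posterior differences in mES cells ranged from 2.91 to 3.85 for H2AK119ub and from -4.90 to -0.18 for H3K27me3, that in HSPCs for H2AK119ub from -2.57 to 4.02, and that in K562 from 11.8 to 21.5. HSPC minus mES ranged from -2.45 to 0.847 for H2AK119ub and from 3.53 to 5.90 for H3K27me3. The Meis1 differences ranged from -0.29 to 2.67 and from -3.31 to -0.16 for the 2 marks in mES cells, from -0.58 to 2.48 and from -0.37 to 0.803 in HSPCs, and from -0.18 to 0.18 in K562, where the value itself is 0. Without KO replicate 1 the H2AK119ub Meis1 difference in mES cells was -0.29. Without WT replicate 1 the H2AK119ub posterior difference in HSPCs was -2.57 and that between cell types 0.847. Without KO replicate 2 or WT replicate 2 the H2AK119ub Meis1 difference in HSPCs was -0.58 or -0.08, and without WT replicate 2 the H3K27me3 one was -0.37. The difference between posterior and anterior cover ranged from 55.6 to 57.6 for H2AK119ub and from 59.3 to 63.0 for H3K27me3, and from 55.4 to 70.2 over the other settings. For these differences the cause was not tested.

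Replicate numbers do not pair the samples, with correlations of deviations from -0.24 to 0.0387. With the numbers as a replicate block the K562 posterior difference was 16.7, the same value, and the smallest sign-flip p for 2 pairs is 0.5. For mES H3K27me3, where the correlation was below -0.1, 1 member was lower in both numbered pairs and 3 in both crossed pairs. The lists give neither depth nor signal, so a change in the amount of a mark inside a peak cannot be seen.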
